A study of Mus musculus with 15 samples.

Results

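The genes of homologous recombination and of the Fanconi pathway were followed in RNA-seq of adult neural stem cells (aNSCs), dividing cells taken from the subventricular zone of mice and grown in suspension with growth factors. The set was a fixed list of 33 genes, chosen by name as genes of double-strand break repair and of the Fanconi pathway, out of 53801 genes in the count table. All 33 were found by symbol, and 32 passed the filter on low counts and were tested. The exception was Atrip, which had 2 to 19 counts per library. The cultures came from 10 mice, aged 2 months, of the strain background labelled C57BL6/J-129sv. Every group carried the Rosa26-CreERT2 transgene, which expresses an inducible Cre recombinase from a ubiquitously active locus, and at least 1 floxed allele of Trrap, an adaptor protein of histone acetyltransferase complexes. Fl/+ cultures (1 floxed and 1 intact allele) of mice 19, 24, 26, 35 and 36 were sequenced untreated and again 5 days after the start of treatment with 4-hydroxytamoxifen (4-OHT), which activates the recombinase. Fl/Fl cultures (both alleles floxed) of mice 27, 28, 29, 37 and 39 were sequenced 5 days after the start of 4-OHT. No untreated Fl/Fl culture was analysed here. Each of the 3 groups therefore held 5 libraries, 1 per mouse, with 3 labelled male and 2 labelled female.

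Homologous recombination mends a double-strand break by copying the undamaged sister chromatid, and so works mainly in cells that are replicating or have replicated their DNA. The ends are trimmed, and with the help of BRCA1, BRCA2 and further strand exchange factors the exposed single strand then invades the sister. The Fanconi pathway unhooks crosslinks between the strands at stalled replication forks, and hands the resulting break to the same machinery. Neural stem and progenitor cells depend on both during their divisions.

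Between 25.7 M and 32.2 M counts were assigned per library. Levels are given in CPM, counts scaled to a common library size by the trimmed mean of M-values, and the floor of 3 counts, below which a gene counts as undetected, was 0.0932 to 0.117 CPM. Trrap, the targeted gene, had 193, 214, 184, 179 and 181 CPM in the untreated Fl/+ cultures of mice 19, 24, 26, 35 and 36. It had 138, 204, 171, 165 and 142 CPM in the Fl/+ 4-OHT cultures of the same mice, and 92.9, 115, 142, 89.2 and 82.7 CPM in the Fl/Fl 4-OHT cultures of mice 27, 28, 29, 37 and 39. Trrap fell by 0.64 (log2) in Fl/Fl against Fl/+ 4-OHT cultures (SE 0.16, adjusted p = 0.0115), but the culture of mouse 29 lay within the Fl/+ 4-OHT range. These counts cover every exon of the gene and not the floxed segment alone. The library labelled Fl/Fl 39, a female, had Y-linked Ddx3y at 54.0 CPM and Xist at 0.31 CPM, so its label and its sex-linked genes did not match. The Fl/+ 4-OHT library of mouse 36, labelled male, had Xist at 74.7 CPM beside Ddx3y at 52.9 CPM. The untreated library of this mouse had Xist at 5.89 CPM beside Ddx3y at 47.7 CPM, where the other untreated male libraries had Xist at 0.29 and 0.15 CPM. Whether these libraries hold RNA of more than 1 culture was not tested. The calls and list counts of Fl/Fl cultures are also given without libraries 29 and 39, and some of the counts that rest on mouse 36 are given without it. All 10 neural stem cell markers listed passed the filter, and their summed level was 10036 to 14037 CPM in untreated Fl/+ cultures, 9618 to 11676 CPM in Fl/+ 4-OHT cultures and 7973 to 12278 CPM in Fl/Fl 4-OHT cultures. Over the 15 libraries, astrocyte markers summed to 3407 to 7008 CPM, oligodendrocyte lineage markers to 3370 to 5401 CPM and neuron markers to 580 to 1161 CPM. Microglia markers summed to at most 2.01 CPM and endothelial markers to at most 8.53 CPM in any library.

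In the aNSCs the genes were expressed at low to moderate levels. Per kb of exon, the mean over the 15 libraries ran from 0.794 CPM per kb for Palb2, which bridges BRCA1 and BRCA2, to 17.2 CPM per kb for Nbn, the break-sensing partner of Mre11a and Rad50. Fance, a subunit of the Fanconi core complex, followed Nbn at 16.3 CPM per kb, and Topbp1, an activator of the checkpoint kinase ATR, had 11.2 CPM per kb. Atrip, the partner of ATR, stood far below at 0.0422 CPM per kb. Its exons lie partly on the same strand as those of Trex1, which was listed at 0 counts in every library, so reads from the shared stretch may not have been assigned and the level of Atrip is uncertain. Rad54b overlaps Fsbp on its own strand, which had at most 107 counts, and Fancc overlaps the long noncoding Gm16907, which had at most 55 counts.

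The first comparison set Fl/Fl 4-OHT against Fl/+ 4-OHT cultures, which had the same treatment and differed in the number of floxed Trrap alleles. The groups also came from different mice. Without untreated Fl/Fl cultures, a difference present before 4-OHT cannot be told apart from an effect of the deletion. Genes said here to rise or fall were higher or lower in Fl/Fl cultures. Fancc and Fancg of the Fanconi core complex, the strand exchange genes Rad51b and Rad51c, and Nbn rose, and the helicase Blm fell. These 6 of 32 genes tested (18.8%) passed the threshold of 0.05 on the p-value of the quasi-likelihood test (edgeR), adjusted by Benjamini-Hochberg over all genes. Of all 15036 genes tested, 31.7% were called, 16.8% higher and 15% lower. The share of the recombination and Fanconi genes that was called was thus below that of all genes, with 15.6% called higher and 3.12% called lower. Their median log2 fold change was -0.15, beside 0.02 over all genes tested, and 21 of 32 lay below 0. Without the Fl/Fl libraries of mice 29 and 39, 3 of the 32 genes (9.38%) were called, beside 20% of all genes, with a median of -0.22 and 20 below 0. In bulk libraries, fewer cells of a type and less RNA per cell cannot be told apart.

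**Figure D1:**
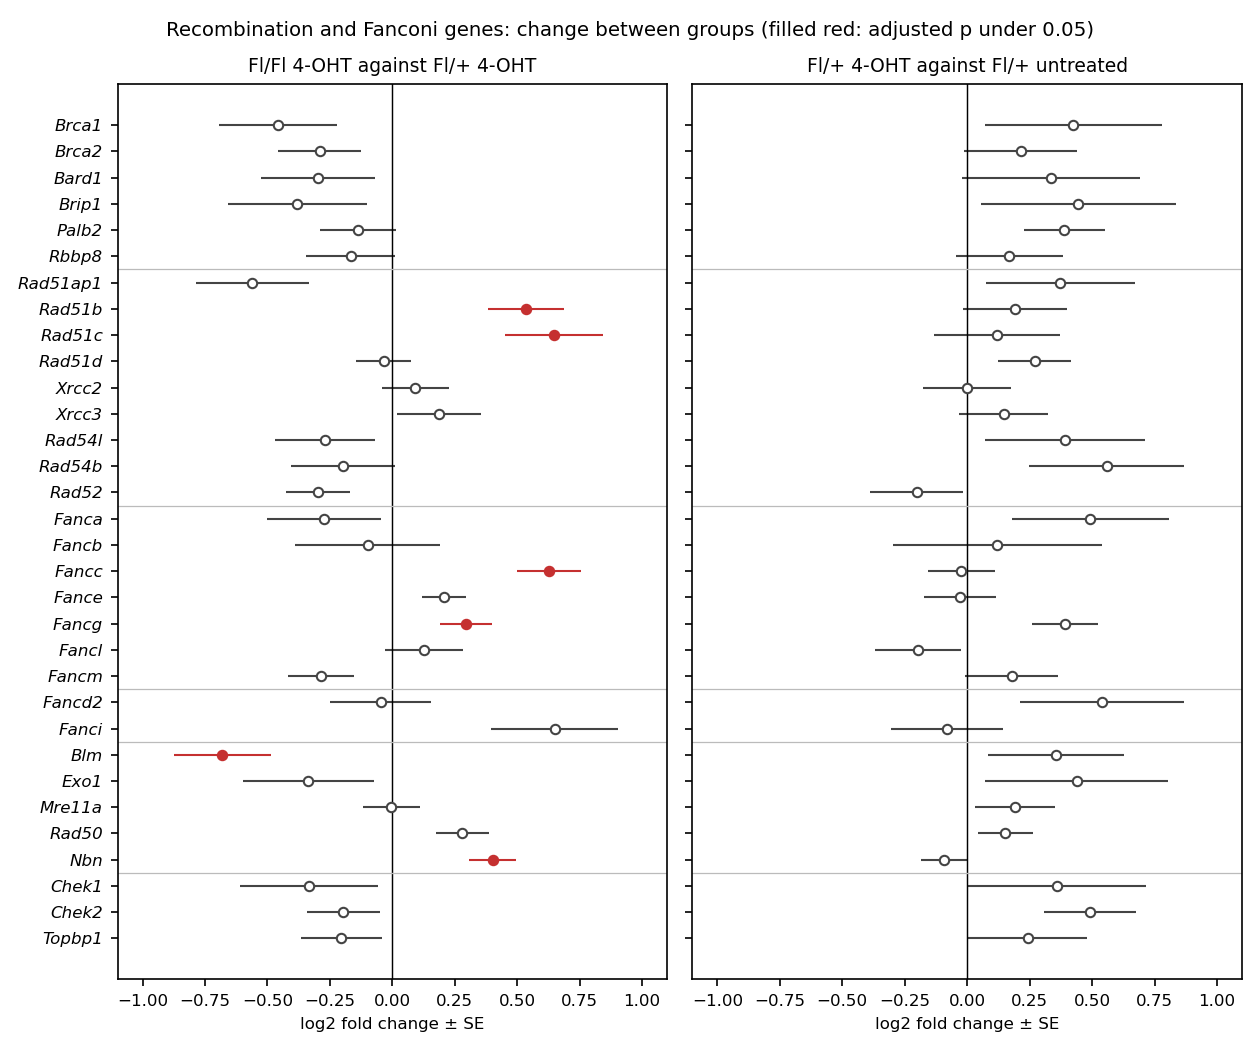
Log2 fold change (x axis, with SE as bars) of the 32 genes tested, in rows grouped by role, for Fl/Fl against Fl/+ 4-OHT cultures on the left and for Fl/+ 4-OHT against untreated cultures on the right (fit without pairing by mouse), with n = 5 libraries per group. Red filled points passed an adjusted p of 0.05: 6 genes on the left and 0 on the right, where 25 of 32 points lie above 0.

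Fancc, a core complex subunit that is needed for the monoubiquitination of the ID2 pair, had 18.2, 24.9, 25.9, 21.5 and 19.1 CPM in the Fl/Fl 4-OHT cultures of mice 27, 28, 29, 37 and 39. In the Fl/+ 4-OHT cultures of mice 19, 24, 26, 35 and 36 it had 11.9, 13.8, 14.7, 14.3 and 16.9 CPM. All Fl/Fl libraries lay above all Fl/+ 4-OHT libraries, and the rise was 0.63 on the log2 scale (SE 0.13, fold 1.55, adjusted p = 0.00429). It was called under all 18 alternatives tried, with log2 fold changes of 0.55 to 0.69. The untreated Fl/+ cultures, at 12.5 to 17.2 CPM, covered nearly the same range as the treated ones.

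Nbn, which brings the kinase ATM to breaks as part of the MRN complex, had 57.0, 47.5, 44.6, 49.5 and 54.9 CPM in the 5 Fl/Fl cultures, in the same order of mice. In the Fl/+ 4-OHT cultures it had 37.6, 35.5, 34.3, 42.4 and 44.1 CPM. The lowest Fl/Fl library (mouse 29) was just above the highest Fl/+ one (mouse 36). Nbn thus differed by 0.40 on the log2 scale (SE 0.09, adjusted p = 0.00782), and it was called under all 18 alternatives.

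Rad51b, which acts early in strand exchange on single-stranded DNA, had 8.67, 7.96, 6.92, 6.45 and 7.91 CPM in the Fl/Fl cultures. In the Fl/+ 4-OHT cultures it had 4.63, 6.27, 4.11, 5.89 and 5.54 CPM. The groups did not overlap, with the Fl/Fl library of mouse 37 next to the Fl/+ library of mouse 24. The change of 0.53 on the log2 scale (SE 0.15, adjusted p = 0.0204) was called under 16 of 18 alternatives. Leaving out the Fl/+ 4-OHT library of mouse 19 gave an adjusted p of 0.0559, and leaving out the Fl/Fl library of mouse 27 gave 0.0508.

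Fancg, which links the core complex together, had 16.6, 18.7, 21.04, 16.3 and 18.8 CPM in the Fl/Fl cultures and 14.5, 16.1, 16.2, 13.3 and 15.2 CPM in the Fl/+ 4-OHT cultures. The groups touched without crossing, since the Fl/Fl library of mouse 37 was only just above the Fl/+ library of mouse 26. The difference was 0.30 on the log2 scale (SE 0.10, adjusted p = 0.0476). This call was weak: it held under 6 of 18 alternatives, and leaving out any 1 of 8 of the 10 libraries ended it (adjusted p up to 0.123). The exceptions were the Fl/+ 4-OHT library of mouse 26 and the Fl/Fl library of mouse 37. These 4 genes, Fancc, Nbn, Rad51b and Fancg, were the ones whose groups did not overlap, while 22.6% of all genes tested had groups that did not overlap.

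**Figure D2:**
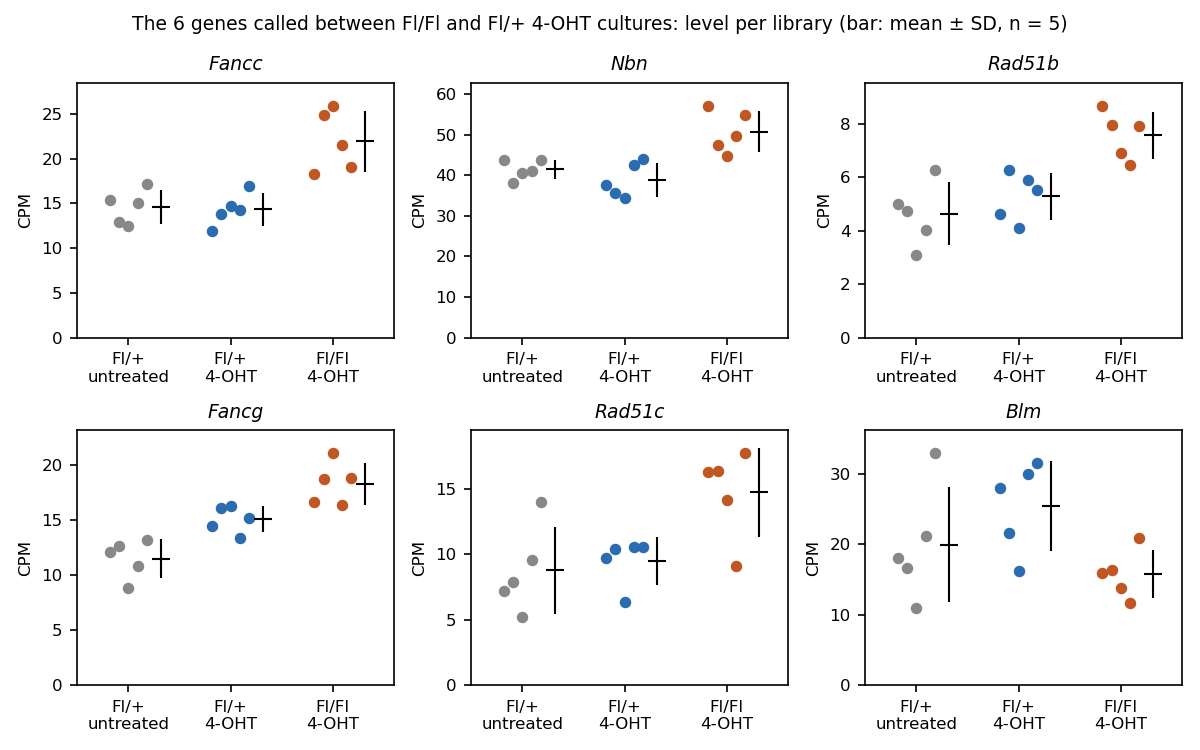
CPM (y axis, from 0) of the 6 genes called between Fl/Fl and Fl/+ 4-OHT cultures, with 1 point per library in mouse order and the mean ± SD of 5 libraries beside them. Fancc, Nbn, Rad51b and Fancg do not overlap between the treated groups, while 1 Fl/Fl library of Rad51c (9.12 CPM) and 2 of Blm (16.4 and 20.8 CPM) lie within the Fl/+ 4-OHT range.

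The remaining calls rested on groups that overlapped. Rad51c, which works both with Rad51b and with Xrcc3, had 16.3, 16.4, 14.2, 9.12 and 17.7 CPM in the Fl/Fl cultures against 9.70, 10.4, 6.32, 10.5 and 10.6 CPM in the Fl/+ 4-OHT cultures. The Fl/Fl library of mouse 37 lay among the Fl/+ libraries. The log2 difference of 0.65 (SE 0.20, adjusted p = 0.0269) was 0.77 without that library, and the call held under 13 of 18 alternatives. The adjusted p was 0.0541 without the Fl/+ 4-OHT library of mouse 19, and 0.0586, 0.0624 and 0.0643 without the Fl/Fl libraries of mice 27, 28 and 39. With a dispersion shared by all 15 libraries it was 0.0606.

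Blm, the helicase that dissolves double Holliday junctions and takes part in end resection, was the only one of the genes called lower. It had 15.9, 16.4, 13.8, 11.7 and 20.8 CPM in the Fl/Fl cultures and 28.0, 21.7, 16.2, 29.9 and 31.5 CPM in the Fl/+ 4-OHT cultures. Blm fell by 0.68 on the log2 scale (SE 0.20, fold 0.62, adjusted p = 0.0218), and it was called under 17 of 18 alternatives, the exception being a dispersion shared by all 15 libraries (adjusted p = 0.0537). The untreated Fl/+ cultures had 10.9 to 32.9 CPM, a range that held all Fl/Fl 4-OHT values.

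Without the Fl/Fl libraries of mice 29 and 39, 3 of the 6 calls remained, those of Fancc (log2 fold change 0.59, adjusted p = 0.0212), Nbn (0.41, adjusted p = 0.0284) and Blm (-0.79, adjusted p = 0.0371). The same 3 genes were the calls left when the Fl/+ 4-OHT library of mouse 19 or the Fl/Fl library of mouse 27 was left out. With 3 Fl/Fl libraries, Fancg had a log2 fold change of 0.20 (adjusted p = 0.249), Rad51b one of 0.55 (adjusted p = 0.0675) and Rad51c one of 0.56 (adjusted p = 0.121). Without the Fl/+ 4-OHT library of mouse 36, Fancg was the 1 call lost (0.28, adjusted p = 0.0927).

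By role, the fold changes were uneven. The 6 genes of the BRCA1 and BRCA2 complexes all had fold changes below 0, with a median of -0.29, and 0 were called by edgeR or by DESeq2. Of these genes 0 had an unadjusted p under 0.05 in edgeR, beside 6462 of all 15036 genes tested. Brca1, the ubiquitin ligase that steers breaks towards recombination, had a log2 fold change of -0.46 (SE 0.24, adjusted p = 0.16). Its partner Bard1 had -0.30, the helicase Brip1 -0.38, Brca2, a mediator of strand exchange, -0.29, the nuclease cofactor Rbbp8 -0.17 and Palb2 -0.14. The spread within groups was wide here, as Brca1 had 16.4 to 39.9 CPM in Fl/Fl cultures and 23.7 to 44.6 CPM in Fl/+ 4-OHT cultures.

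Of the 9 strand exchange genes 22.2% were called, beside 16.8% of all genes called higher and 31.7% called in either direction. Rad51b and Rad51c rose, and the other 7 were not called. Their partners in complexes had log2 fold changes of -0.04 (Rad51d), 0.09 (Xrcc2) and 0.19 (Xrcc3). Rad51ap1, which stimulates strand invasion, had -0.56 (SE 0.23, adjusted p = 0.0793) and was called lower by DESeq2. Rad52, an annealing factor, had -0.30, and the motor proteins Rad54l and Rad54b, which act on DNA during strand exchange, had -0.27 and -0.20.

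In the core complex of the Fanconi pathway, 2 of 7 genes were called, Fancc and Fancg, and both rose. This was 28.6%, beside 16.8% of all genes called higher and 31.7% called in either direction. Fance had a log2 fold change of 0.21 (adjusted p = 0.0956) and Fancl, the ubiquitin ligase subunit, 0.13. Fanca, Fancb and the anchor protein Fancm had -0.27, -0.10 and -0.29. Of the ID2 pair that the core complex ubiquitinates, Fancd2 had -0.05 and Fanci 0.65 (SE 0.25, adjusted p = 0.0713). Fanci had 60.6, 55.8, 45.4, 21.8 and 54.9 CPM in the Fl/Fl cultures and 27.9, 38.5, 20.03, 33.6 and 33.8 CPM in the Fl/+ 4-OHT cultures. The Fl/Fl library of mouse 37 was thus among the Fl/+ values while the other 4 were above them, and without it the log2 fold change was 0.82 (adjusted p = 0.00492). Without the libraries of mice 29 and 39 it was 0.59 (adjusted p = 0.208). DESeq2 called Fanci higher as well.

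Among the genes of break sensing, resection and unwinding, the remaining MRN subunits stood at 0.28 for Rad50 (adjusted p = 0.0629) and at -0.00 for Mre11a, the nuclease (SE 0.11), beside the rise of Nbn. Exo1, the exonuclease of long-range resection, had -0.34 (SE 0.26). The 3 checkpoint genes tested, the effector kinases Chek1 and Chek2 and the scaffold Topbp1, had -0.33, -0.20 and -0.20, with 0 called by edgeR or by DESeq2. Of these genes 0 had an unadjusted p under 0.05 in edgeR, beside 6462 of all 15036 genes tested.

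Promoter sequences are shown for the genes called between Fl/Fl and Fl/+ 4-OHT cultures that had an entry, since they moved in opposite directions, and for a further pair of genes whose window held an E2F motif. In the RefSeq table of mouse promoters (GRCm38.p6), 25 of 33 genes had an entry. Nbn, Rad50, Rad51d, Rad54b, Xrcc2, Exo1, Fancd2 and Rbbp8 had none. The window was the 250 bases before each transcription start, searched on both strands, with each motif counted on its own so that matches of different motifs could share bases. The E2F letters TTTGGCGC, TTTCCCGC or TTTCGCGC were in the window of 5 of 25 genes (20%), Bard1, Brca2, Chek2, Fancg and Topbp1, against 1.78% of 27025 genes with an entry. The letters TTTGAA of the cell cycle genes homology region were found for 1 of 25 (4%), against 18.3% of all. CCAAT was found for 15 of 25 (60%), against 37.5%, and the GC box GGGCGG likewise for 15 of 25 (60%), against 35.4%. In the sequences that follow, printed 5′ to 3′ on the strand of the gene and without annotated exons of any gene, capitals mark the E2F letters and the GC box on either strand.
Fancc, chr13:63431746-63431995, minus strand: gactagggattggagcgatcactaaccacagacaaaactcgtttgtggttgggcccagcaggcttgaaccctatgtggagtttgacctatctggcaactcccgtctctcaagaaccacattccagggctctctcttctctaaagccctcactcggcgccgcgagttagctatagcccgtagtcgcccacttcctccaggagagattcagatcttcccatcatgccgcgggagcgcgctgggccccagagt
Fancg, chr4:43010507-43010551, minus strand: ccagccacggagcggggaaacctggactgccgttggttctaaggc
Rad51b, chr12:79297032-79297281, plus strand: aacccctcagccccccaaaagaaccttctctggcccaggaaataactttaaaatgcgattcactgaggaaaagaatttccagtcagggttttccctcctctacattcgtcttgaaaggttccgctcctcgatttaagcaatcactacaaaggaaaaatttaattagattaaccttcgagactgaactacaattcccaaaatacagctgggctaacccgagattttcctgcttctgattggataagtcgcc
Rad51c, chr11:87404955-87405064, minus strand: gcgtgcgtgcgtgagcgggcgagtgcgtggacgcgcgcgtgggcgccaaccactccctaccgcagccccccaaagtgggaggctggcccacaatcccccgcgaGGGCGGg
Blm, chr7:80535120-80535248, minus strand: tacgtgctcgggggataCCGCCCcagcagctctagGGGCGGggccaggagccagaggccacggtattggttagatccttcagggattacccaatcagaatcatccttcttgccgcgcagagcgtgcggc
Topbp1, chr9:103305083-103305214, plus strand: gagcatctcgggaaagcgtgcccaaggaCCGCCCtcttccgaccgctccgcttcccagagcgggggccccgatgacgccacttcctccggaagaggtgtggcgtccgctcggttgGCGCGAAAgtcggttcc
Bard1, chr1:71103147-71103222, minus strand: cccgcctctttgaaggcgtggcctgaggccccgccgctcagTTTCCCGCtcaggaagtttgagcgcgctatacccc
The stretch of Fancc lies before its RefSeq start, while a longer annotated transcript of the gene starts further upstream. The stretches before Fancc and Rad51b, which rose, hold neither motif. Fancg, which rose, has an E2F match in its window but outside the short stretch shown. Rad51c, which rose, has a GC box next to its start, and Blm, which fell, has 2 GC boxes in the stretch shown. A further RefSeq start of Rad51c, not shown, has 2 GC boxes in its window, and the whole window of Blm has 3. The stretch before Topbp1 holds a GC box and an E2F match, and that before Bard1 an E2F match. A match here is one of letters only.

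The second comparison set Fl/+ 4-OHT against untreated Fl/+ cultures, which came from the same 5 mice and differ in 4-OHT and in the recombination of the 1 floxed allele, which cannot be told apart. It shares the Fl/+ 4-OHT libraries with the first. Without the pairing by mouse, 0 of 32 genes were called by edgeR, beside 13.8% of all 14821 genes tested (7.34% higher and 6.45% lower). DESeq2 called 1 (Fancg). An unadjusted p under 0.05 in edgeR was found for 3 of the 32 genes, beside 4353 of all genes tested. The median log2 fold change was 0.23 against -0.01 over all genes tested, and 25 of 32 genes lay above 0. With the mouse as a replicate block, 7 genes were called higher (21.9%) and 0 lower, beside 25.7% of all genes called and 13.8% called higher. These were Blm, Brip1, Chek2, Exo1, Fancd2, Rad51ap1 and Rad54b, with adjusted p of 0.0268 to 0.0484. The calls thus came from BRCA1-associated, strand exchange, resection, Fanconi and checkpoint genes.

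**Figure D3:**
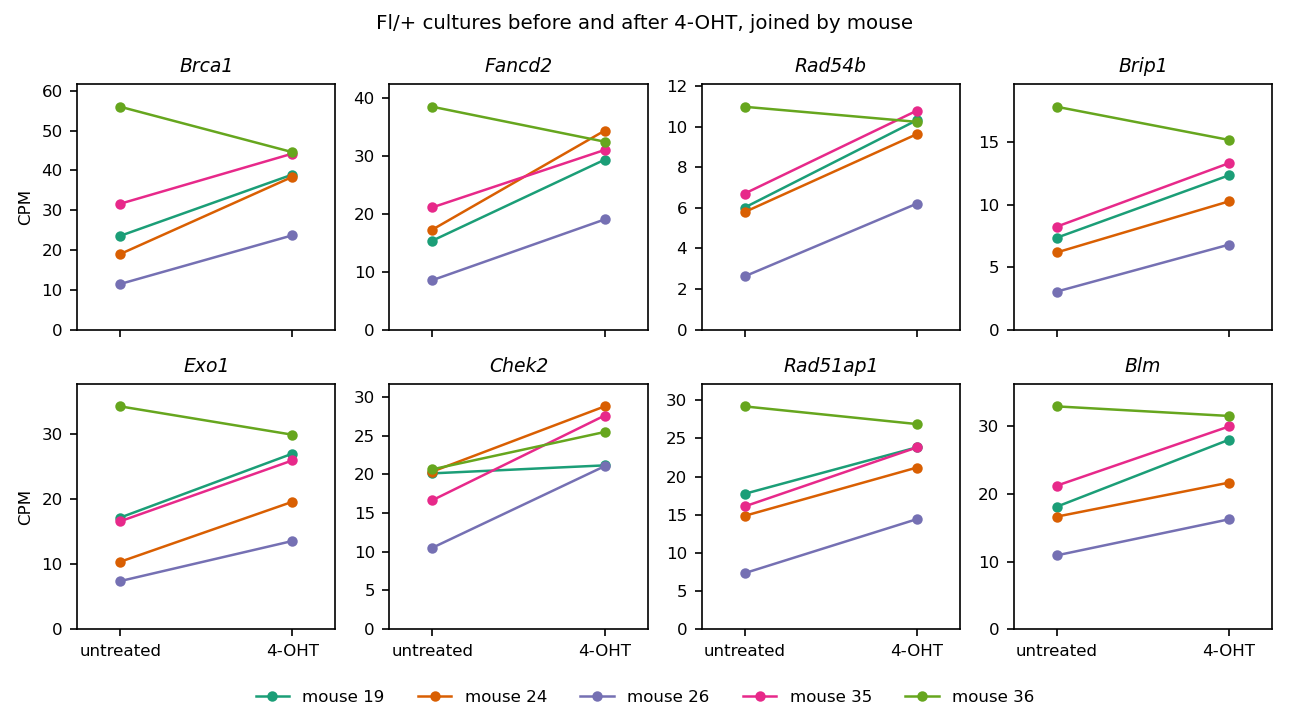
CPM (y axis, from 0) of the 7 genes called in the paired fit, and of Brca1 for comparison, in untreated (left) and 4-OHT treated (right) Fl/+ cultures, with 1 line per mouse. Lines of mice 19, 24, 26 and 35 rise in all 8 panels, while mouse 36, the highest untreated culture in every panel, falls in every panel but that of Chek2.

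Fancd2, a ubiquitinated partner in the ID2 pair, had 15.3, 17.3, 8.53, 21.1 and 38.4 CPM in the untreated cultures of mice 19, 24, 26, 35 and 36, and 29.3, 34.3, 19.0, 31.0 and 32.4 CPM after 4-OHT. It was higher after 4-OHT in 4 of 5 mice, with a ratio of 0.84 to 2.23 within a mouse. The paired log2 fold change was 0.67 (SE 0.19, adjusted p = 0.0333), and the unpaired one 0.54 (SE 0.33, adjusted p = 0.301). Mouse 36, whose libraries both had Xist beside Ddx3y, was the one in which the level was lower after treatment. Its untreated culture was the highest of the untreated ones.

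Rad54b, a motor protein of strand exchange, had 6.01, 5.79, 2.62, 6.70 and 10.97 CPM untreated and 10.3, 9.62, 6.20, 10.8 and 10.2 CPM treated, with a paired log2 fold change of 0.66 (adjusted p = 0.0349). Brip1 had a paired value of 0.61 (adjusted p = 0.0484) and Exo1 one of 0.57 (adjusted p = 0.0339). In Chek2, the kinase downstream of ATM, the level was higher in 5 of 5 mice, and the groups did not overlap: 10.5 to 20.7 CPM untreated and 21.1 to 28.8 CPM treated. Its paired log2 fold change was 0.52 (adjusted p = 0.0268). Rad51ap1 and Blm had paired values of 0.47 and 0.40, and both were higher in 4 of 5 mice.

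Fancg was the other gene whose groups did not overlap, as were 12% of all genes tested. It had 12.1, 12.6, 8.81, 10.8 and 13.2 CPM untreated and 14.5, 16.1, 16.2, 13.3 and 15.2 CPM after 4-OHT, higher in 5 of 5 mice. Its log2 fold change was 0.39 (SE 0.13, adjusted p = 0.0727) unpaired and 0.40 (adjusted p = 0.0501) paired, so it was not called in either fit. Palb2 was likewise higher in 5 of 5 mice (paired log2 fold change 0.40, adjusted p = 0.0689), and Rad50 too (0.15, adjusted p = 0.171). Brca1 had a paired value of 0.58 (adjusted p = 0.0512) and Chek1 one of 0.43 (adjusted p = 0.0503).

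The other genes were not called in either fit. Nbn had a paired log2 fold change of -0.10, Fancc of -0.02, Fance of -0.01, Fanci of -0.06 and Xrcc2 of 0.03. Fancl and Rad52 had -0.18 and -0.16, Fancl being lower after 4-OHT in 4 of 5 mice. The remaining 13 genes, not named above for this comparison, had paired values between 0.16 (Rbbp8) and 0.65 (Fanca).

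The paired calls depended on single mice. When the pair of mouse 36, whose libraries had Xist beside Ddx3y, was left out, 13 genes were called higher, beside 12.9% of all genes called higher in that fit: Brip1, Rad54b, Bard1, Fanca, Exo1, Blm, Fancd2, Rad54l, Chek1, Brca1, Rad51ap1, Chek2 and Topbp1. When the pair of mouse 19 was left out, 2 were called (Rad51d and Chek2, or 6.25%), beside 10.8% of all genes called higher. When the pair of mouse 24, 26 or 35 was left out, 0 were called by edgeR, beside 10.3%, 8.28% and 8.03% of all genes called higher. The fold changes of the 7 genes stayed above 0 in all 5 of these fits, at 0.52 to 0.85 for Rad54b, 0.56 to 0.90 for Fancd2, 0.50 to 0.77 for Exo1 and 0.40 to 0.64 for Chek2. In the unpaired fit, leaving out the untreated library of mouse 36 alone gave 4 calls (Rad54l, Fanca, Fancd2 and Fancg), or 12.5%, all higher, beside 9.01% of all genes called higher.

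In the third comparison, Fl/Fl 4-OHT against untreated Fl/+ cultures, genotype and treatment differed together, and its libraries are shared with the other comparisons. Here 6 of 32 genes were called higher (18.8%) and 0 lower, beside 30.7% of all genes called, 15.7% higher and 15.1% lower. Fancg had a log2 fold change of 0.69 (adjusted p = 0.00362), Fancc 0.60 (adjusted p = 0.00767), Rad51b 0.72 (adjusted p = 0.0161), Rad51c 0.76 (adjusted p = 0.0452), Nbn 0.31 (adjusted p = 0.0203) and Rad50, the ATPase of the MRN complex, 0.43 (adjusted p = 0.015). Rad50 had 46.3, 38.2, 37.3, 36.3 and 47.5 CPM in the Fl/Fl cultures and 29.0, 30.6, 26.2, 32.4 and 35.9 CPM in the untreated ones, with no overlap. Blm had a log2 fold change of -0.33 (adjusted p = 0.364). Brca1, at 27.3 CPM ± 9.26 (SD, n = 5) in Fl/Fl and 28.3 CPM ± 17.1 (SD, n = 5) in untreated cultures, had -0.04 (SE 0.38). Fancg, Fancc, Rad51b and Rad50 were called under all 18 alternatives. The call of Rad51c held under 10 of 18, and leaving out any 1 of 8 of the 10 libraries ended it (adjusted p up to 0.0975), the exceptions being the untreated library of mouse 36 and the Fl/Fl library of mouse 37. That of Nbn was lost without the Fl/Fl library of mouse 27 or 39 (adjusted p up to 0.0539). Without the Fl/Fl libraries of mice 29 and 39, 2 genes (6.25%) were called, Fancc and Fancg, beside 18.4% of all genes. The 4 genes no longer called had log2 fold changes of 0.73 (Rad51b, adjusted p = 0.0678), 0.67 (Rad51c, adjusted p = 0.183), 0.39 (Rad50, adjusted p = 0.0754) and 0.32 (Nbn, adjusted p = 0.0595) in that fit. In this comparison 6 of 10 oligodendrocyte lineage markers were called higher and 1 lower (median log2 fold change 1.57), 6 of 9 neuron markers lower (median -1.40), 6 of 10 neural stem cell markers lower, and 1 of 7 astrocyte markers higher and 3 lower. Of 20 p53 targets 9 were called higher and 1 lower, and of 32 S phase genes 2 lower. Without the Fl/Fl libraries of mice 29 and 39, 5 oligodendrocyte lineage markers were called higher, 3 neuron and 4 neural stem cell markers lower, and 6 p53 targets higher and 1 lower, while 1 astrocyte marker was called higher and 0 lower, and 0 S phase genes were called by edgeR. Their part in the values of the recombination and Fanconi genes was not tested.

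The genes varied more between libraries of 1 group than other genes of their level did. Over the 32 genes, the median coefficient of variation was 31.1% in untreated Fl/+, 16.1% in Fl/+ 4-OHT and 20.3% in Fl/Fl 4-OHT cultures, beside 16.5%, 12.7% and 11.3% of the 9327 genes within their range of levels. The untreated culture of mouse 26 was the lowest of its group for 28 of 32 genes, that of mouse 26 after 4-OHT for 25, and the Fl/Fl culture of mouse 37 for 28. Of genes of the same level, 20%, 28.9% and 28.9% were lowest in these 3 libraries. The untreated culture of mouse 36 was the highest for 28 of 32 genes, against 26.0% of genes of that level.

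The most variable gene in the untreated group was Brip1, with 7.35, 6.17, 3.04, 8.24 and 17.8 CPM and a coefficient of variation of 65.2%. Brca1, with 23.6, 19.0, 11.5, 31.6 and 56.0 CPM, followed the same order of extremes. Nbn was the steadiest in that group, at 38.0 to 43.7 CPM (5.81%). Rad52 ran the other way, with its lowest untreated values in mice 36 (13.8 CPM) and 35 (16.4 CPM) and 24.4 to 27.9 CPM in the rest. Fance was also lowest in mouse 36 (35.7 CPM). The summed level of 32 genes of S phase and proliferation had the same extremes: 2887, 2408, 1490, 2822 and 4825 CPM in the untreated cultures, 3680, 3423, 2551, 3979 and 3999 CPM in the Fl/+ 4-OHT cultures, and 2608, 2458, 1742, 1527 and 3131 CPM in the Fl/Fl cultures. Its part in the values of the recombination and Fanconi genes was not tested.

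**Figure D4:**
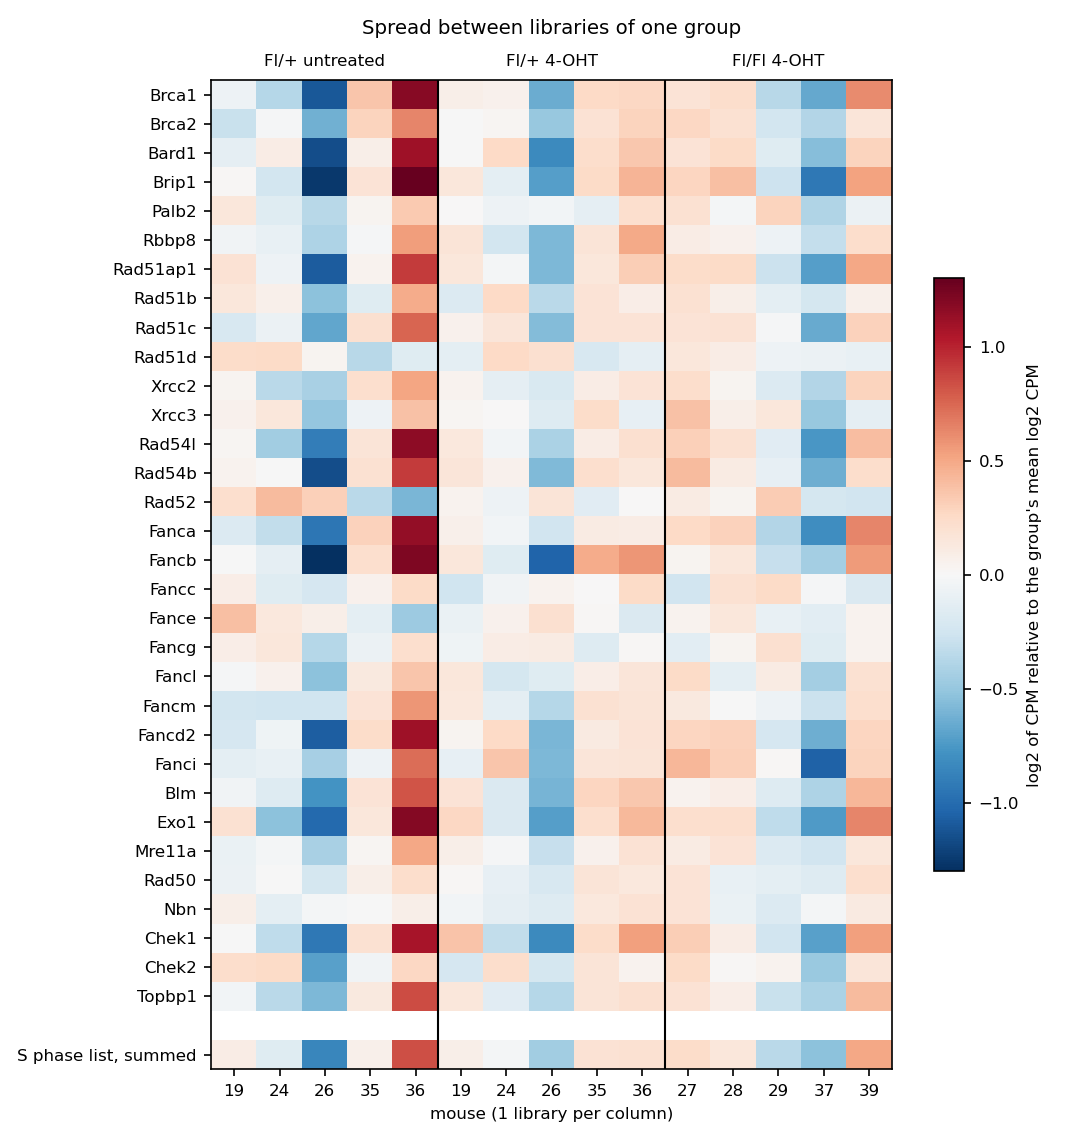
Log2 of CPM relative to the mean log2 CPM of the group (colour) for the 32 genes in rows and the 15 libraries in columns, with the summed S phase list in the bottom row. The columns of mouse 26 in both Fl/+ groups and of mouse 37 in the Fl/Fl group are blue in most rows, and that of untreated mouse 36 is red. Rad52, Fance and Rad51d depart from this pattern, and Fancc, Nbn and Fancg depart from it in part.

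Related gene lists gave the setting. Of 45 other recombination and Fanconi genes tested, 5 were called higher and 4 lower in Fl/Fl against Fl/+ 4-OHT cultures (20%, beside 31.7% of all genes), with a median log2 fold change of -0.07. The nuclease gene Fan1 rose (0.65, adjusted p = 0.000724), and Parpbp, a negative regulator of recombination (-0.96), the resolvase Gen1 (-0.65) and Faap100, a partner of the core complex (-0.52), fell. After 4-OHT in Fl/+ cultures, 0 of the 45 were called without pairing and 5 were called higher, 0 lower, with it (11.1%, beside 25.7% of all genes). Without the pair of mouse 36, 10 were called higher.

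Of 25 checkpoint signalling genes, 3 were called higher and 5 lower in Fl/Fl cultures (32%, near the share of all genes, median -0.20), among them the clamp subunits Rad9b (0.91) and Rad9a (-0.79) and the phosphatases Cdc25c (-1.47) and Cdc25b (-0.77). Of 14 end joining genes, which serve the competing repair route, 1 rose (the polymerase Poll, 0.63) and 2 fell (Parp1, -0.41, and the ligase Lig3, -0.28), with a median of 0.05. All 32 S phase and proliferation genes lay below 0 in Fl/Fl cultures, with a median of -0.41, and 7 were called lower, led by Rrm2 (-1.42), Mki67 (-1.35), Ccna2 (-1.25) and Top2a (-1.002). Of 20 E2F and DREAM regulators, which govern transcription at the entry to S phase, 2 were called higher and 7 lower (median -0.26), led by E2f7 (-1.92), Mybl2 (-0.96), E2f2 (-0.88) and Foxm1 (-0.85). Of the 32 S phase genes 21.9% were thus called, all lower, beside 31.7% of all genes called in either direction and 15% called lower. Of the 20 E2F and DREAM regulators 45% were called in either direction, beside the same 31.7%. Without the Fl/Fl libraries of mice 29 and 39, when 20% of all genes were called, 3 of the other recombination genes were called higher and 2 lower, 2 and 4 of the checkpoint genes, and 1 and 1 of the end joining genes. In that fit 8 of the 32 S phase genes were called lower and all 32 lay below 0 (median -0.52), while 2 of the E2F and DREAM regulators were called higher and 6 lower. Fold changes of the recombination and Fanconi genes and of these lists were measured in the same libraries, and how far the first go with the second was not tested.

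Of 20 p53 targets, 0 were called higher and 4 lower in Fl/Fl against Fl/+ 4-OHT cultures (20%, median -0.11). Of all genes, 31.7% were called in either direction and 15% lower. Without the libraries of mice 29 and 39, 3 of the p53 targets were called lower. After 4-OHT in Fl/+ cultures, 8 of the 20 were called higher and 0 lower without pairing (40%, beside 13.8% of all genes), with a median of 0.59, and 12 higher with pairing (60%, beside 25.7%). The death receptor genes Tnfrsf10b (1.67) and Fas (1.09), the cell cycle inhibitor Cdkn1a (1.07) and Plk2 (0.86) were the largest rises in the unpaired fit. In the same comparison, 29 of 32 S phase genes lay above 0 (median 0.20), with 0 called without pairing and 4 called higher with it, and 21 called higher with pairing but without mouse 36. In that comparison 6 of 10 oligodendrocyte lineage markers were also called higher (0 lower), while the summed level of the list overlapped at 3462 to 4510 CPM untreated and 3370 to 4659 CPM treated, with no marker at 0 in every library. Of 10 neural stem cell markers, 1 was called higher and 4 lower, of 7 astrocyte markers 1 higher and 3 lower, and of 9 neuron markers 1 lower. With pairing, 7 of 10 oligodendrocyte lineage, 7 of 10 neural stem cell, 5 of 7 astrocyte and 4 of 9 neuron markers were called in either direction. In Fl/Fl against Fl/+ 4-OHT cultures, 4 of 10 neural stem cell markers (Sox2, Fabp7, Hes5 and Prom1) and 2 of 9 neuron markers were called lower and 1 of 7 astrocyte markers higher. Without the libraries of mice 29 and 39, 2 neural stem cell and 2 neuron markers were called lower and 1 astrocyte marker higher. Without the Fl/+ 4-OHT library of mouse 36, 1 neuron marker was called lower in this comparison, and without the pair of mouse 36, 3 of 7 astrocyte markers were called in the paired one. The summed neuron markers were at 835 to 1021 CPM in Fl/+ 4-OHT and at 580 to 825 CPM in Fl/Fl cultures. Their part in the values of the recombination and Fanconi genes was not tested.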

How the data were processed

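Poly(A) RNA was sequenced by the authors as 51-cycle single-end stranded reads, mapped with STAR 2.5.4b to GRCm38 and assigned with featureCounts 1.5.0. The deposited table holds raw counts of uniquely mapped reads in each gene, not normalized, so reads shared by near-identical genes were lost. The libraries had no molecular identifiers, so count floors cover counting error only. All 15 columns were used. Of 53801 gene IDs, 53706 matched a symbol.

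Each comparison was fitted on its own 10 libraries with edgeR 4.0.16 (filterByExpr with a minimum count of 10, TMM scaling, quasi-likelihood F test without covariates). P-values were adjusted by Benjamini-Hochberg over all genes tested and called under 0.05. The study used DESeq2, which was run here (1.42.0) as an alternative. The others were DESeq2 size factors, library size alone, no low-count filter, at least 10 counts in every library, a shared dispersion, labelled sex, the series of mouse numbers, the mouse as a block and each library left out. Leaving out Fl/Fl 29 and 39 together, and the block without each mouse, were added after the data were seen. Scripts were tested on simulated data.

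The untreated and treated Fl/+ cultures were taken from 1 set of 5 mice. Deviations of 15309 genes from the group means correlated with r of 0.197 to 0.587 between cultures of 1 mouse, and with r of -0.493 to 0.319 between mice. The labels and the study's methods differ on the 4-OHT dose, which is not given here, and on the exposure: per the labels it lasted all 5 days, and per the methods fresh medium replaced it for the last of them. All 33 genes were named by rule, with every library's value for those called without overlap between groups, and the up to 4 largest called changes were named in each of 6 gene lists. Other values were printed after they were seen. The members and lists were chosen with earlier results of these data known. Of the lists, 3 symbols of the other recombination genes and 2 of the checkpoint genes did not match. A gene of the list of other recombination genes is not reported here. Promoter sequences are those of RefSeq.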

Additional observations from a re-analysis of the deposited data

Results flagged for a closer look

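In 96 groups of 5 values (32 genes in 3 groups), 3 single values stood apart from the other 4 of their group by Dixon's test. Chance alone marks about 1 in 20 groups. Rad51c had 6.32 CPM in the Fl/+ 4-OHT culture of mouse 26, against 9.70 to 10.6 CPM in the other 4. Rad54b had 6.20 CPM in the same library, against 9.62 to 10.8 CPM. Fanci had 51.8 CPM in the untreated Fl/+ culture of mouse 36, against 23.2 to 29.9 CPM.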

How the results depend on the processing

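In Fl/Fl against Fl/+ 4-OHT cultures, 6 genes of the set were called. The count was 3 with a dispersion shared by all 15 libraries and 3 without Fl/Fl 29 and 39. It was 5 with DESeq2 size factors, without the low-count filter or with labelled sex. With library size alone it was 7, and with DESeq2 or the mouse-number series as a covariate 8. When 1 library was left out it was 3 to 9 (3 without Fl/+ 4-OHT 19 or Fl/Fl 27). Over all genes the count went from 4773 to 3066 without Fl/Fl 29 and 39, and to 3772 to 4734 without 1 library. Against untreated Fl/+ cultures, 2 genes of the set and 2829 of all genes were called without Fl/Fl 29 and 39.

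In Fl/+ 4-OHT against untreated cultures, 0 genes of the set were called. The count was 1 with DESeq2, 1 with library size alone, 1 with a shared dispersion and 7 with the mouse as a replicate block, and 0 to 4 when 1 library was left out. With the block and 1 mouse left out it was 0 to 13. Of all genes, 2044 were called, 3170 with the mouse-number series as a covariate, 3809 with the replicate block, 2130 to 3578 with the block and without 1 mouse, and 1271 to 2522 without 1 library (1271 without Fl/+ 4-OHT 19 and 1311 without Fl/+ 4-OHT 35).

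Small fold changes crossed 0. In Fl/Fl against Fl/+ 4-OHT cultures, Rad51d had 0.0016 with library size alone and 0.0090 without Fl/Fl 29 and 39, and Mre11a had 0.027 with library size alone and 0.00013 with labelled sex. Without 1 library, Rad51d ranged from -0.10 to 0.020, Mre11a from -0.084 to 0.041, Fancb from -0.29 to 0.027 and Fancd2 from -0.18 to 0.070. In the 4-OHT comparison Xrcc2 had 0.057 with library size alone, 0.015 with at least 10 counts in every library, 0.026 with labelled sex, 0.025 with the mouse series and 0.033 with the replicate block. Fancc had 0.031 and Fance 0.022 with library size alone. Without 1 library, Xrcc2 ranged from -0.099 to 0.15, Rad51c from -0.022 to 0.35, Fancb from -0.099 to 0.53, Fancc from -0.079 to 0.048, Fance from -0.13 to 0.075 and Fanci from -0.18 to 0.15. With the replicate block, Xrcc2 had 0.040 without mouse 19, 0.062 without 35 and 0.11 without 36, Fancc had 0.071 and Fance 0.12 without 19, Fance had 0.026 without 24, and Fanci had 0.076 without 36. The cause was not tested. None of these values was called.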
